A study of Homo sapiens with 6 samples.

Results

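The genes described here are 46 human lysosomal genes: 4 abundant membrane proteins of the lysosome, 25 enzymes and lipid-handling proteins of its lumen and membrane, its calcium channel, the 3 MiT/TFE transcription factors that control lysosomal genes, and 13 subunits of the V-ATPase, the proton pump that acidifies it. They are the genes of a list of symbols, matched to Ensembl identifiers; 46 of the 58219 gene identifiers in the count tables belong to the list, and 45 of the 46 had enough reads to be tested among 14239 genes. RNA was measured by stranded sequencing of poly(A) RNA in SNU-387, an established human line from a pleomorphic hepatocellular carcinoma. One group stably expressed a short hairpin RNA against the tyrosine kinase YES1 (shYES1, n = 3 libraries) and the other stably expressed a hairpin with no target (shNT, n = 3 libraries). Both groups share the cell line and the stable hairpin, and differ, per the labels, in the hairpin alone. The sources used here give neither the hairpin sequence nor any treatment or time point. Whether the 3 libraries of a group stem from separate cultures is not stated either, and each p-value then rests only on library-to-library spread, which may be technical.

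Lysosomes are acidic compartments in which hydrolases break down proteins, glycans, nucleic acids and lipids delivered by endocytosis and autophagy. The V-ATPase pumps protons through its membrane sector, V0, using ATP split by its cytosolic sector, V1. Soluble hydrolases are mostly carried to the lysosome by receptors that bind mannose 6-phosphate, and TFEB, TFE3 and MITF, related basic helix-loop-helix factors, can switch on many of these genes through E-box sequences in their promoters. In liver cells lysosomes also recycle lipoproteins and glycoproteins taken up from the blood.

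In shYES1 cells the lysosomal genes did not move as one: 23 of the 45 tested were higher, 17 were lower and 5 did not pass the test. In the V1 sector of the proton pump 7 of 8 genes were higher and none was lower, whereas the 8 proteases gave 2 higher and 5 lower, a difference between classes that was not tested. The 3 largest falls exceeded every rise among members: the protease genes CTSC and TPP1 and the ceramidase gene ASAH1 were 3.49-fold lower, 2.84-fold lower and 2.24-fold lower, and the largest rise, of the pump gene ATP6V0A1, was 1.61-fold higher. Over the called members the falls and rises were of similar size, with a median log2 fold change of -0.35 over the 17 that were lower and 0.33 over the 23 that were higher. Genes were called at an adjusted p under 0.05 in edgeR's quasi-likelihood test with Benjamini-Hochberg adjustment over all 14239 genes, and each fold change is shYES1 over shNT. Numbers in parentheses after a gene are its log2 fold change and, where given, the standard error (SE) and adjusted p. The share of members called, 88.9%, stands beside 65.3% of all genes tested, where 32.5% of the genes tested were higher and 32.8% lower. In bulk RNA fewer cells of a kind and less RNA per cell cannot be told apart. Members are well expressed: where the mean reached 20 CPM (the reads of a gene relative to the scaled total of its library), 92.7% of 41 members and 80.1% of 7507 genes were called, a level chosen after the data were seen. Most changes were small, with 34 of the 40 called members under 1.5-fold, and the 3 members at 2-fold or more make 6.67% of those tested, against 8.74% of all genes. The 3 libraries of one group all lay on one side of the other group's for 39 of 45 members (86.7%), against 67.9% of all genes. The median log2 fold change was 0.09 over members and -0.0047 over all genes, and the median of its size was 0.27 over members and 0.30 over all genes.

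The choice of library scaling moves every log2 fold change by up to about 0.1 in either direction, which matters for the smallest changes. With no composition factor, 24 members were higher and 16 lower (60.7% of all calls higher), and the median over all genes was 0.092. With the factor taken from genes whose 3' UTR lacks CCTTTC, a sequence that came from an earlier look at these data (the CCTTTC-free scaling), 16 members were higher and 20 lower (38.6% of all calls higher), and the median over all genes was -0.095. In the reported fit 49.7% of all calls were higher. In a test against a change of 1.2-fold, 12 members were higher and 9 lower.

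**Figure D1:**
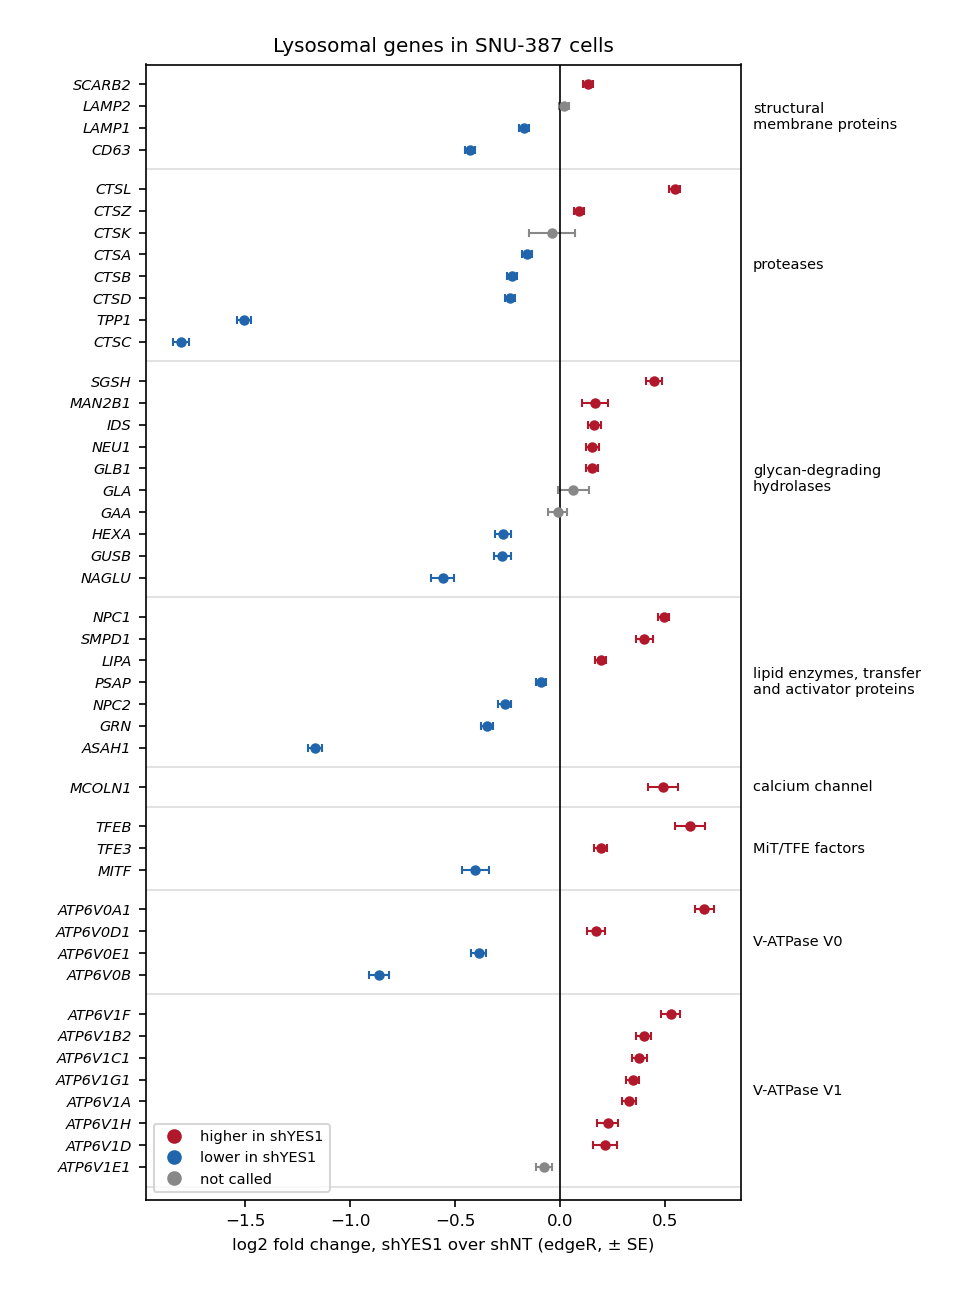
The horizontal axis gives the log2 fold change, shYES1 over shNT, of each of the 45 tested lysosomal genes with its standard error as a bar, ordered within role classes, red for higher, blue for lower and grey for not called. CTSC, TPP1 and ASAH1 sit below -1, no gene sits above 0.69, and all V-ATPase V1 genes except ATP6V1E1 lie right of 0.

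Promoter windows of RefSeq (build GRCh38.p14, 250 bases before to 50 bases after the annotated start) were at hand for 33 of the 46 genes and were searched on both strands for the E-box CACGTG, for the longer TCACGTGA that contains it, which MiT/TFE factors are known to bind, and for TCATGTGA, the related site first described for MITF in pigment genes, which does not contain CACGTG. The E-box CACGTG was in 10 of 33 windows (30.3%), against 8.86% of 15264 windows of protein-coding genes in the files. TCACGTGA was in 6 of 33 (18.2%, against 1.47%) and TCATGTGA in 3 of 33 (9.09%, against 0.943%). The members are lysosomal genes by choice, and the sites were picked because MiT/TFE factors are known to act on such genes. A higher share among members was therefore likely from the start and tests nothing. A match describes these letters and shows no binding. The 6 windows with TCACGTGA are shown to let a reader see the sites of genes that moved in different directions, each as 30 bases read 5′ to 3′ on the gene's strand, with the motif in capitals and, where a window holds several, the copy nearest the start.
LAMP1, chr13:113297226-113297255, plus strand: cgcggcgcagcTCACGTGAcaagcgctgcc
MCOLN1, chr19:7522598-7522627, plus strand: gggctaccgggTCACGTGAccgaggcacag
CTSA, chr20:45891298-45891327, plus strand: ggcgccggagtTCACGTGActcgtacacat
GAA, chr17:80101538-80101567, plus strand: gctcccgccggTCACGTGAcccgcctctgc
ATP6V0D1, chr16:67481199-67481228, minus strand: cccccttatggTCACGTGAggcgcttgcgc
ATP6V1G1, chr9:114587699-114587728, plus strand: acgctgtgcggTCACGTGAcaacgggggcg

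The sites began 2 to 60 bases before the start, and LAMP1, MCOLN1 and GAA each hold 2 copies. Of these 6 genes MCOLN1 (0.49 on the log2 scale), ATP6V1G1 (0.34) and ATP6V0D1 (0.17) were higher in shYES1, LAMP1 (-0.17) and CTSA (-0.16) were lower, and GAA (-0.012) was not called. Over the 10 tested genes with CACGTG in the window, 4 were higher and 5 lower (median log2 fold change -0.085). Over the 22 without it, 14 were higher and 6 lower (0.16). Of all genes tested, 32.5% were higher and 32.8% lower, and calls of other genes with CACGTG were not counted. The split of members by this site was not tested. Windows with TCATGTGA, or TCACATGA when read on the other strand, belong to 3 members. All 3 were lower in shYES1, CD63 (-0.43), GRN (-0.35) and TPP1 (-1.51), beside 32.8% of all genes tested. Calls of other genes with TCATGTGA in the window were not counted, so 3 genes show no link to the site. The window of CD63 also holds CACGTG, and TPP1 and GRN hold 2 copies of TCATGTGA each.
TPP1, chr11:6619413-6619442, minus strand: catgtgatccgTCACATGAcagcagatccg
GRN, chr17:44345084-44345113, plus strand: tgattctccaaTCACATGAtccctagaaat
CD63, chr12:55729094-55729123, minus strand: ctgttaccgcgTCACATGAgggaggccggc

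The targeted gene checks the labels. YES1 (ENSG00000176105.13), on the minus strand of chromosome 18 from 721588 to 812546 in GRCh38, had 42.9, 43.3 and 46.02 CPM in shYES1 libraries, against 178, 181 and 179.9 CPM in shNT libraries (-2.02, SE 0.037, edgeR adjusted p = 7.93e-40). Gene reads per library numbered 15975170, 11290889 and 18944148 in shYES1 and 12825919, 13651401 and 16388822 in shNT. The labels name liver as the tissue, yet 8 of 10 hepatocyte markers, ALB, APOA1, TTR and HNF4A among them, stayed under 1 CPM in every library. The other 2 were expressed and differed in direction. SERPINA1 was lower (-0.18), with means of 16.9 CPM in shYES1 and 19.15 CPM in shNT. TF was higher (0.46), with means of 3.41 CPM in shYES1 and 2.46 CPM in shNT. Summed markers of macrophages, cells rich in lysosomes, ranged from 73.7 to 80.4 CPM in shYES1 and from 65.1 to 67.4 CPM in shNT. That sum is mostly CD14 and CSF1R, of which CSF1R was higher and CD14 lower in shYES1, and ITGAM, LYZ, MRC1 and MARCO stayed under 1 CPM in every library. Endothelial marker sums were 23.1 to 23.7 CPM in shYES1 and 24.8 to 25.9 CPM in shNT, fibroblast sums 1846 to 1908 CPM in shYES1 and 1912 to 1933 CPM in shNT, and sums of mesenchymal carcinoma genes 16623 to 16795 CPM in shYES1 and 25642 to 28286 CPM in shNT. These lists did not move as one. Of the endothelial markers VWF was higher (2.09) at a low level, with means of 1.44 CPM in shYES1 and 0.351 CPM in shNT. PECAM1 was lower (-0.30) and CDH5 was not called (-0.078). Of the fibroblast markers COL1A1, which makes up most of the sum, was higher (0.17), and DCN (-1.43), LUM (-1.12) and ACTA2 (-0.59) were lower. Of the mesenchymal genes FN1, which makes up most of that sum, was lower (-0.72), as were VIM (-0.94) and ZEB1 (-0.33), and CDH2 was higher (0.38). The part of these differences in the results was not tested.

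The transcription factors and the calcium channel changed by modest amounts, TFEB and TFE3 up and MITF down. TFEB (ENSG00000112561.17, GRCh38 chromosome 6, 41683978 to 41736259, minus strand), which moves to the nucleus when nutrients are scarce and induces lysosomal genes, had 23.6, 22.8 and 23.2 CPM in shYES1 libraries, against 14.7, 15.5 and 15.1 CPM in shNT libraries (0.62, SE 0.071, edgeR adjusted p = 1.51e-10). The groups were well apart, with all shYES1 libraries above all shNT libraries. TFE3, a close relative with overlapping targets, had 146, 142 and 147 CPM in shYES1 libraries, against 124, 128 and 129 CPM in shNT libraries (0.19, SE 0.032, edgeR adjusted p = 1.08e-06). MITF, best known as the master factor of pigment cells, had 23.2, 22.5 and 19.97 CPM in shYES1 libraries, against 28.1, 28.9 and 29.1 CPM in shNT libraries (-0.40, SE 0.065, edgeR adjusted p = 4.62e-07), and its shYES1 libraries all lay below its shNT libraries. Per kilobase of transcript, TFE3 was the most abundant of the 3, at 42.5 ± 0.789 CPM per kilobase in shYES1 cells and 37.2 ± 0.914 CPM per kilobase in shNT cells, followed by TFEB with 9.86 in shYES1 and 6.42 in shNT and MITF with 4.55 in shYES1 and 5.96 in shNT. MCOLN1 (ENSG00000090674.15, GRCh38 chromosome 19, 7522626 to 7534009, plus strand), the channel that lets calcium out of the lysosome and whose loss causes mucolipidosis, had 21.4, 22.1 and 22.3 CPM in shYES1 libraries, against 15.7, 15.2 and 15.97 CPM in shNT libraries (0.49, SE 0.071, edgeR adjusted p = 6.6e-08). All 4 calls held under the 16 alternatives except that TFE3 was not called against a 1.2-fold change. RNA levels do not report where these factors sit in the cell.

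Of the 4 abundant membrane proteins, CD63 and LAMP1 were lower in shYES1, SCARB2 was higher and LAMP2 was not called. CD63, a tetraspanin of late endosomes, lysosomes and exosomes, showed the largest difference of the 4, at 549, 539.8 and 555 CPM in shYES1 libraries, against 722, 751 and 738 CPM in shNT libraries (-0.43, SE 0.025, edgeR adjusted p = 2.16e-20). LAMP1, a heavily glycosylated protein that lines the membrane, had 833, 828 and 801 CPM in shYES1 libraries, against 921, 934 and 920.2 CPM in shNT libraries (-0.17, SE 0.024). SCARB2, which carries glucocerebrosidase to the lysosome, had 712, 717 and 725 CPM in shYES1 libraries, against 648, 661 and 656 CPM in shNT libraries (0.13, SE 0.024), a call lost under the CCTTTC-free scaling. LAMP2, needed for fusion with autophagosomes, averaged 1032 ± 12.2 CPM in shYES1 cells and 1019 ± 19.4 CPM in shNT cells (SD, n = 3 each) and was not called (0.019, SE 0.024, edgeR adjusted p = 0.494). Its groups overlapped, and its direction turned with the scaling, being called higher (0.12, edgeR adjusted p = 4.1e-05) with library size alone and lower (-0.072, 0.00668) under the CCTTTC-free scaling.

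Proteases held the largest falls of the list. CTSC (ENSG00000109861.15, GRCh38 chromosome 11, 88293592 to 88337787, minus strand), a dipeptidyl peptidase that activates serine proteases of immune cells, had 49.5, 50.5 and 45.9 CPM in shYES1 libraries, against 167, 171 and 169 CPM in shNT libraries (-1.80, SE 0.038, edgeR adjusted p = 1.17e-37). The highest shYES1 value was far below the lowest shNT value. TPP1 (ENSG00000166340.15, GRCh38 chromosome 11, 6612763 to 6619485, minus strand), a tripeptidyl peptidase whose loss causes a childhood neuronal ceroid lipofuscinosis, had 92.1, 86.6 and 88.7 CPM in shYES1 libraries, against 255, 249.7 and 256 CPM in shNT libraries (-1.51, SE 0.032, edgeR adjusted p = 1.86e-37), although 11.6% of its exon bases are shared with an overlapping transcript on the same strand. CTSD, the aspartic protease that is among the best expressed hydrolases here, had 541, 530.3 and 542 CPM in shYES1 libraries, against 628, 648 and 628 CPM in shNT libraries (-0.24, SE 0.024). Another annotated gene covers 41.7% of its exon bases, so its level is uncertain. CTSL (ENSG00000135047.14, GRCh38 chromosome 9, 87725519 to 87731393, plus strand), a cysteine protease that is also secreted by tumour cells, rose, with 407, 396 and 405 CPM in shYES1 libraries, against 276, 269 and 282 CPM in shNT libraries (0.54, SE 0.026, edgeR adjusted p = 4.25e-23). All its shYES1 libraries exceeded all its shNT libraries. CTSZ, a carboxypeptidase, had 616, 611 and 609 CPM in shYES1 libraries, against 567, 578 and 577 CPM in shNT libraries (0.09, SE 0.024, edgeR adjusted p = 0.001), a rise that vanished under the CCTTTC-free scaling (-0.00065, edgeR adjusted p = 0.983). The cysteine protease gene CTSB was lower at -0.23, and CTSA, the protective protein of the galactosidase and neuraminidase complex, at -0.16. CTSK, a collagenase of osteoclasts, had 8.70, 6.59 and 9.19 CPM in shYES1 libraries, against 8.81, 8.25 and 8.74 CPM in shNT libraries and was not called (edgeR adjusted p = 0.771).

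Glycan-degrading hydrolases split, with 5 of 10 higher, 3 lower and 2 not called (median log2 fold change 0.11). SGSH (ENSG00000181523.12, GRCh38 chromosome 17, 80206716 to 80220923, minus strand), a sulfatase that acts on heparan sulfate, rose most, with 88.8, 88.5 and 87.2 CPM in shYES1 libraries, against 65.6, 65.2 and 63.6 CPM in shNT libraries (0.44, SE 0.039, edgeR adjusted p = 3.69e-14). NAGLU, which removes N-acetylglucosamine from the same heparan sulfate chains, was lower, with 28.6, 29.6 and 28.8 CPM in shYES1 libraries, against 41.8, 43.4 and 42.8 CPM in shNT libraries (-0.56, SE 0.053, edgeR adjusted p = 6.59e-13). These 2 enzymes of one degradation pathway thus differed in direction, and neither had libraries of one group within the range of the other. IDS, a sulfatase of heparan and dermatan sulfate, had 156, 156 and 153 CPM in shYES1 libraries, against 140.4, 134 and 139.8 CPM in shNT libraries (0.16, SE 0.031). GUSB, the beta-glucuronidase, had 66.1, 63.6 and 63.4 CPM in shYES1 libraries, against 76.7, 79.8 and 77.3 CPM in shNT libraries (-0.27, SE 0.04). HEXA, the alpha subunit of the hexosaminidase that degrades the ganglioside GM2, had 72.9, 79.1 and 79.2 CPM in shYES1 libraries, against 91.5, 96.6 and 91.1 CPM in shNT libraries (-0.27, SE 0.039). All shYES1 libraries of GUSB and HEXA lay below those of shNT. MAN2B1, an alpha-mannosidase, had 32.9, 28.9 and 33.8 CPM in shYES1 libraries, against 29.005, 27.02 and 30.03 CPM in shNT libraries, and its groups overlapped (0.16, SE 0.061, edgeR adjusted p = 0.0166). That call was lost with DESeq2 (adjusted p = 0.0955), under the CCTTTC-free scaling (0.294), and without shNT replicate 2 (0.112), shYES1 replicate 1 (0.0634) or shYES1 replicate 3 (0.142). The beta-galactosidase gene GLB1 (0.15) and the sialidase gene NEU1 (0.15) were higher, though neither was called under the CCTTTC-free scaling. GAA, the acid alpha-glucosidase that degrades glycogen, averaged 56.02 ± 1.25 CPM in shYES1 cells and 56.7 ± 1.67 CPM in shNT cells and the alpha-galactosidase gene GLA 18.4 ± 0.891 CPM in shYES1 cells and 17.7 ± 0.617 CPM in shNT cells (SD, n = 3 each), and neither was called, though GAA was called lower under the CCTTTC-free scaling (-0.10, edgeR adjusted p = 0.0397). Exons of HEXA, MAN2B1, IDS and NAGLU share 4.89% to 16.5% of their bases with another annotated gene.

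Among the 7 lipid-handling genes 3 rose and 4 fell. ASAH1 (ENSG00000104763.18, GRCh38 chromosome 8, 18055992 to 18084998, minus strand), the acid ceramidase that turns ceramide into sphingosine, had 81.3, 77.8 and 75.4 CPM in shYES1 libraries, against 172, 178 and 176 CPM in shNT libraries (-1.17, SE 0.034, edgeR adjusted p = 1.5e-31). SMPD1, the acid sphingomyelinase that makes ceramide, moved the other way, with 93.5, 99.4 and 99.2 CPM in shYES1 libraries, against 77.2, 71.2 and 72.995 CPM in shNT libraries (0.40, SE 0.039, edgeR adjusted p = 1.3e-12). Both genes had groups far apart relative to the spread between libraries. NPC1 (ENSG00000141458.12, GRCh38 chromosome 18, 23506184 to 23586898, minus strand), the membrane protein that exports cholesterol from the lysosome, rose, with 323, 319 and 326 CPM in shYES1 libraries, against 237, 228 and 224 CPM in shNT libraries (0.49, SE 0.028, edgeR adjusted p = 8.96e-21). NPC2, the soluble protein that hands cholesterol to NPC1, fell, with 178, 177 and 183 CPM in shYES1 libraries, against 209, 210.3 and 226 CPM in shNT libraries (-0.26, SE 0.031, edgeR adjusted p = 2.44e-10). The partners of this transfer thus differed in direction, and for each of them no library of one group lay within the range of the other group. LIPA, the lipase that frees cholesterol and fatty acids from lipoproteins, had 255, 267 and 259.6 CPM in shYES1 libraries, against 224, 229 and 229 CPM in shNT libraries (0.19, SE 0.028). GRN, the precursor of the granulins, had 265, 260.2 and 263 CPM in shYES1 libraries, against 325, 342 and 337 CPM in shNT libraries (-0.35, SE 0.027). PSAP, which is cut into the saposins that help hydrolases reach their lipids, averaged 1314 ± 12.1 CPM in shYES1 cells and 1398 ± 42.02 CPM in shNT cells (SD, n = 3 each). Its small fall (-0.09, SE 0.024, edgeR adjusted p = 0.00109) was lost with library-size scaling (0.0065, adjusted p = 0.834).

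**Figure D2:**
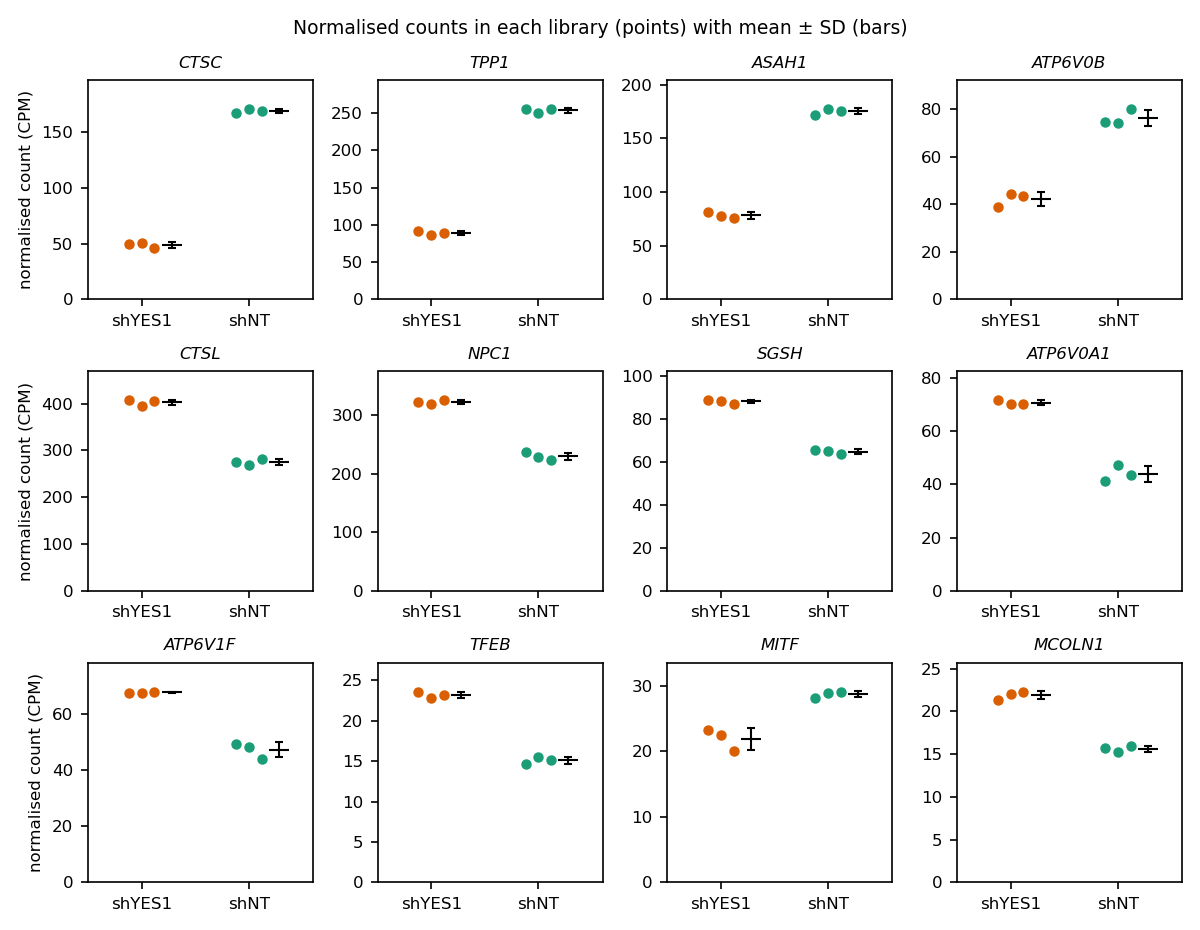
Each panel plots the normalised count in CPM (axis from 0) of one gene in the 3 shYES1 libraries, left, and the 3 shNT libraries, right, as points, with the mean and SD as a bar. In none of the 12 panels do the groups overlap; CTSC, TPP1, ASAH1, ATP6V0B and MITF are lower in shYES1 and the other 7 are higher.

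In the proton pump 9 of 12 tested V-ATPase genes were higher, 2 were lower and 1 was not called. The V1 sector, which splits ATP, gave 7 of 8 genes higher with a median log2 fold change of 0.34. ATP6V1F (ENSG00000128524.4, GRCh38 chromosome 7, 128862826 to 128865844, plus strand), a subunit of the central stalk, had 67.3, 67.5 and 67.8 CPM in shYES1 libraries, against 49.04, 48.3 and 44.04 CPM in shNT libraries (0.53, SE 0.045, edgeR adjusted p = 3.42e-14). ATP6V1B2, the B subunit of the catalytic head, had 129.7, 130.2 and 126 CPM in shYES1 libraries, against 92.6, 99.4 and 100.05 CPM in shNT libraries (0.40, SE 0.035, edgeR adjusted p = 5.72e-14). ATP6V1C1, the C subunit that links the stators and helps to control sector assembly, had 109, 107 and 104 CPM in shYES1 libraries, against 80.9, 83.3 and 81.04 CPM in shNT libraries (0.38, SE 0.036, edgeR adjusted p = 9.23e-13). In each of these 3 genes every shYES1 library exceeded every shNT library. The stator gene ATP6V1G1 (0.34), the catalytic gene ATP6V1A (0.33), the regulatory gene ATP6V1H (0.23) and the stalk gene ATP6V1D (0.21) were higher as well, though ATP6V1D was not called under the CCTTTC-free scaling. ATP6V1E1, a stator gene, averaged 97.8 ± 5.08 CPM in shYES1 cells and 103 ± 4.28 CPM in shNT cells (SD, n = 3 each) and was not called (-0.079, SE 0.038, edgeR adjusted p = 0.0681). It was called lower without shNT replicate 1 (-0.099, edgeR adjusted p = 0.0269), without shNT replicate 2 (-0.097, 0.0444), without shYES1 replicate 1 (-0.12, 0.014) and under the CCTTTC-free scaling (-0.17, 0.000141), and its sign turned with library-size scaling (0.018, 0.697). Against a change of 1.2-fold, 5 V1 genes were higher and none was lower, and 6 were higher under the CCTTTC-free scaling.

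The membrane sector V0 split. ATP6V0A1 (ENSG00000033627.16, GRCh38 chromosome 17, 42458844 to 42522611, plus strand), an isoform of the a subunit through which protons pass, had 71.5, 70.1 and 70.1 CPM in shYES1 libraries, against 41.1, 47.1 and 43.4 CPM in shNT libraries (0.69, SE 0.046, edgeR adjusted p = 7.3e-18). ATP6V0D1, the d subunit that joins the rotor to the stalk, had 71.6, 70.2 and 73.9 CPM in shYES1 libraries, against 61.1, 66.1 and 64.8 CPM in shNT libraries (0.17, SE 0.042, edgeR adjusted p = 0.000354), a call lost under the CCTTTC-free scaling. These 2 genes were higher in every shYES1 library, and the other 2 were lower. ATP6V0B (ENSG00000117410.13, GRCh38 chromosome 1, 43974487 to 43978295, plus strand), a proteolipid of the rotor ring, had 38.7, 44.5 and 43.4 CPM in shYES1 libraries, against 74.7, 74.01 and 80.2 CPM in shNT libraries (-0.86, SE 0.048, edgeR adjusted p = 5.9e-21). ATP6V0E1, the small e subunit, had 98.3, 92.8 and 95.6 CPM in shYES1 libraries, against 122, 123 and 130.3 CPM in shNT libraries (-0.39, SE 0.035, edgeR adjusted p = 1.79e-13). ATP6V0C, the main proteolipid of the ring, had 4 to 12 reads in every library and was not tested. Of its exon bases 57.5% are shared with 1 overlapping annotated gene and 14.6% with another, so its level is uncertain.

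Isoform shares of the pump are given as values without a test. Within the a subunit, shares of the summed CPM per kilobase were 10.1% ± 0.293 for ATP6V0A1 in shYES1 cells and 7.33% ± 0.38 in shNT cells (SD, n = 3 each). TCIRG1, the a3 isoform known for acid secretion by osteoclasts, held most of it, with 89.3% ± 0.348 in shYES1 cells and 91.4% ± 0.326 in shNT cells. ATP6V0A2, the isoform known from the Golgi, held 0.523% ± 0.0515 in shYES1 cells and 1.24% ± 0.0646 in shNT cells. As genes, TCIRG1 rose (0.19, SE 0.025, edgeR adjusted p = 9.24e-09) and ATP6V0A2 fell (-1.04, SE 0.091, edgeR adjusted p = 6.22e-14). For the other subunits with several genes the form listed here held at least 88.9% in both groups, the lowest being ATP6V0E1 with 88.9% ± 0.373 in shYES1 cells and 92.7% ± 0.152 in shNT cells.

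**Figure D3:**
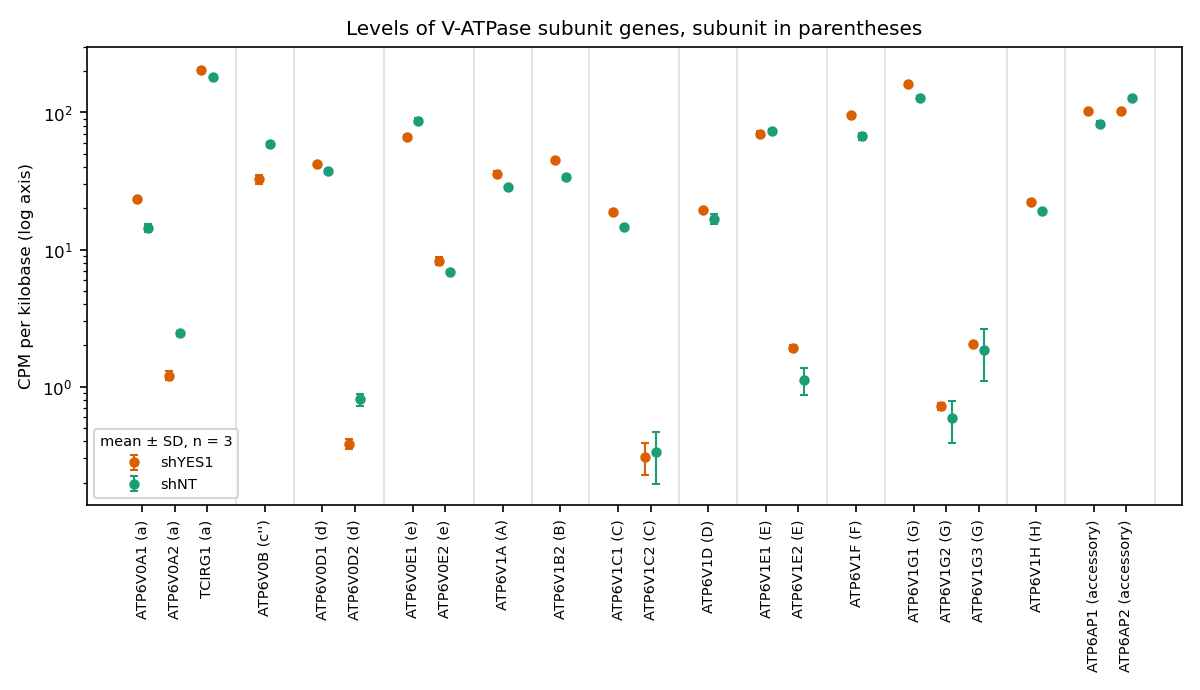
The vertical axis gives CPM per kilobase of transcript on a log axis for V-ATPase subunit genes, as means with SD over 3 libraries, shYES1 to the left of shNT for each gene. TCIRG1 is the best expressed a subunit gene, ATP6V0B and ATP6V0E1 are lower in shYES1, and all V1 genes of the list except ATP6V1E1 are higher in shYES1.

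Per kilobase, the best expressed members were PSAP, with 457 ± 4.20 CPM per kilobase in shYES1 cells and 487 ± 14.6 CPM per kilobase in shNT cells (SD, n = 3 each), and CD63, with 444 ± 6.08 CPM per kilobase in shYES1 cells and 598 ± 11.8 CPM per kilobase in shNT cells. The next were CTSZ, with 409 ± 2.43 CPM per kilobase in shYES1 cells and 384 ± 4.23 CPM per kilobase in shNT cells, and LAMP1, with 304 ± 6.46 CPM per kilobase in shYES1 cells and 343 ± 2.90 CPM per kilobase in shNT cells. In shYES1 cells LAMP2 (256 ± 3.02), CTSD (253 ± 3.10) and CTSB (242 ± 2.86) were close neighbours. The order of PSAP and CD63 was the other way round in shNT cells. Summed over the 45 genes, CPM averaged 11002 in shYES1 cells and 11602 in shNT cells, a ratio of 0.948. As a share of all gene reads without composition scaling, the same genes held 1.14% in shYES1 and 1.12% in shNT, so the direction of that sum depends on the scaling. The V1 sector summed to 824, 830 and 805 CPM in shYES1 libraries, against 649, 673 and 675 CPM in shNT libraries, and held 0.0844% of gene reads in shYES1 and 0.0643% in shNT. The proteases summed to 3144, 3071 and 3118 CPM in shYES1 libraries, against 3525, 3579 and 3536 CPM in shNT libraries, and held 0.322% of gene reads in shYES1 and 0.342% in shNT. Both of these sums kept their direction in reads without scaling.

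Of the 45 tested members 20 (44.4%) have CCTTTC in their longest annotated 3' UTR, against 48.3% of 11968 tested genes with such a UTR. Members with it gave 9 higher and 11 lower (median log2 fold change -0.17), and those without it 14 higher, 6 lower and 5 not called (median 0.15). Of the 5785 tested genes with the sequence, 1786 were higher and 2514 lower (median -0.073). Of the 6183 without it, 2593 were higher and 1606 lower (median 0.093). Members and all genes thus tilted the same way. Because CCTTTC came from an earlier look at these same data, neither split can serve as a test of it. CTSC, TPP1, ASAH1 and ATP6V0B, the 4 largest falls, all have it, as do the risers ATP6V0A1, SGSH and MCOLN1. For CTSC (5622 against 1921 bases) and ASAH1 (2747 against 2512) that UTR is longer than the whole principal transcript. Which UTR the cells use was not checked. UTR length was not taken into account either. The UTRs of CTSC, ASAH1 and TPP1 (3120 bases) exceed the median of 1133 over members, and that of ATP6V0B (802) does not. The part of CCTTTC in the changes was not tested. In this design effects of a hairpin on transcripts other than YES1 cannot be told apart from effects of lower YES1.

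Lysosomal genes outside the list gave 34 higher, 41 lower and 38 not called of 113 tested, 66.4% called, close to the share over all genes. The balance of these calls depends on the scaling, with 46 higher and 33 lower under library-size scaling and 25 higher and 57 lower under the CCTTTC-free scaling. Other hydrolases and activators had 5 of 27 higher and 12 lower (median -0.077). ARSB, the sulfatase of dermatan sulfate, had 10.7, 10.01 and 10.6 CPM in shYES1 libraries, against 50.9, 44.95 and 45.2 CPM in shNT libraries (-2.16, SE 0.069, edgeR adjusted p = 3.46e-30), and PPT1, a thioesterase whose loss causes infantile ceroid lipofuscinosis, had 52.4, 55.3 and 57.5 CPM in shYES1 libraries, against 179, 189 and 192 CPM in shNT libraries (-1.76, SE 0.038, edgeR adjusted p = 3.68e-37). The fall of ARSB exceeded that of any member. The phospholipase gene PLA2G15 (0.77) and the acid phosphatase gene ACP2 (0.76) rose. Other membrane and transport proteins had 6 of 22 higher and 8 lower (median -0.048), with LAMP3 (-1.02), at 0.854 ± 0.239 CPM in shYES1 cells and 1.81 ± 0.6 CPM in shNT cells (SD, n = 3 each), lower, and the amino acid transporter gene SLC36A1 (0.75) and the peptide transporter gene ABCB9 (0.61) higher.

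The remaining V-ATPase genes had 5 of 14 higher and 5 lower (median 0.18). ATP6V0D2 fell at a low level (-1.10, SE 0.25), with means of 0.936 CPM in shYES1 and 1.98 CPM in shNT. ATP6V0A2 fell as well. ATP6V1E2 rose (0.76, SE 0.18), also at a low level, with means of 3.81 CPM in shYES1 and 2.21 CPM in shNT. TMEM199 (0.40), an assembly factor, rose too. In the accessory pair ATP6AP1 rose (0.31) and ATP6AP2 fell (-0.31). In mannose 6-phosphate tagging and sorting 6 of 13 genes were higher and 5 lower (median 0.043). GNPTAB (ENSG00000111670.14, GRCh38 chromosome 12, 101745497 to 101830938, minus strand), a subunit of the enzyme that starts the tag, rose, with 71.8, 74.3 and 71.2 CPM in shYES1 libraries, against 40.2, 42.8 and 44.5 CPM in shNT libraries (0.76, SE 0.046, edgeR adjusted p = 1.09e-19). M6PR (ENSG00000003056.7, GRCh38 chromosome 12, 8940363 to 8949955, minus strand), the small receptor that carries tagged hydrolases, fell, with 87.9, 88.02 and 88.8 CPM in shYES1 libraries, against 148, 153 and 157 CPM in shNT libraries (-0.79, SE 0.034, edgeR adjusted p = 2.65e-25). The larger receptor gene IGF2R averaged 921 ± 14.3 CPM in shYES1 cells and 895 ± 61.8 CPM in shNT cells (SD, n = 3 each) and was not called (edgeR adjusted p = 0.342). The sorting receptor gene SORT1 fell (-0.64) and the adaptor gene GGA3 rose (0.54).

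In the list for control of the MiT/TFE factors, which also includes the MiT/TFE gene TFEC, 5 of 16 genes were higher and 5 lower (median -0.037). MTOR (0.51) and RPTOR (0.34), subunits of the kinase complex mTORC1, rose. RRAGD, a RAG GTPase, fell at a low level, with 0.183, 0.342 and 0.562 CPM in shYES1 libraries, against 1.37, 1.66 and 1.71 CPM in shNT libraries (-2.06, SE 0.34, edgeR adjusted p = 1.02e-06). TFEC, another MiT/TFE gene, was also near the limit of detection, and its fall (-0.80, SE 0.35, edgeR adjusted p = 0.0448) was lost with DESeq2 (adjusted p = 0.179), with library-size scaling (0.0761), without a low-count filter (0.111), against a 1.2-fold change (0.107), and without shNT replicate 1 (0.1), shNT replicate 2 (0.152) or any one of the shYES1 libraries (0.0541 to 0.216). Of 21 genes for lysosome fusion and positioning 7 were higher and 6 lower (median 0.053), with BORCS7 (-0.83) and AP3B1 (-0.62) lower and RILP (0.53) and BORCS6 (0.49) higher.

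**Figure D4:**
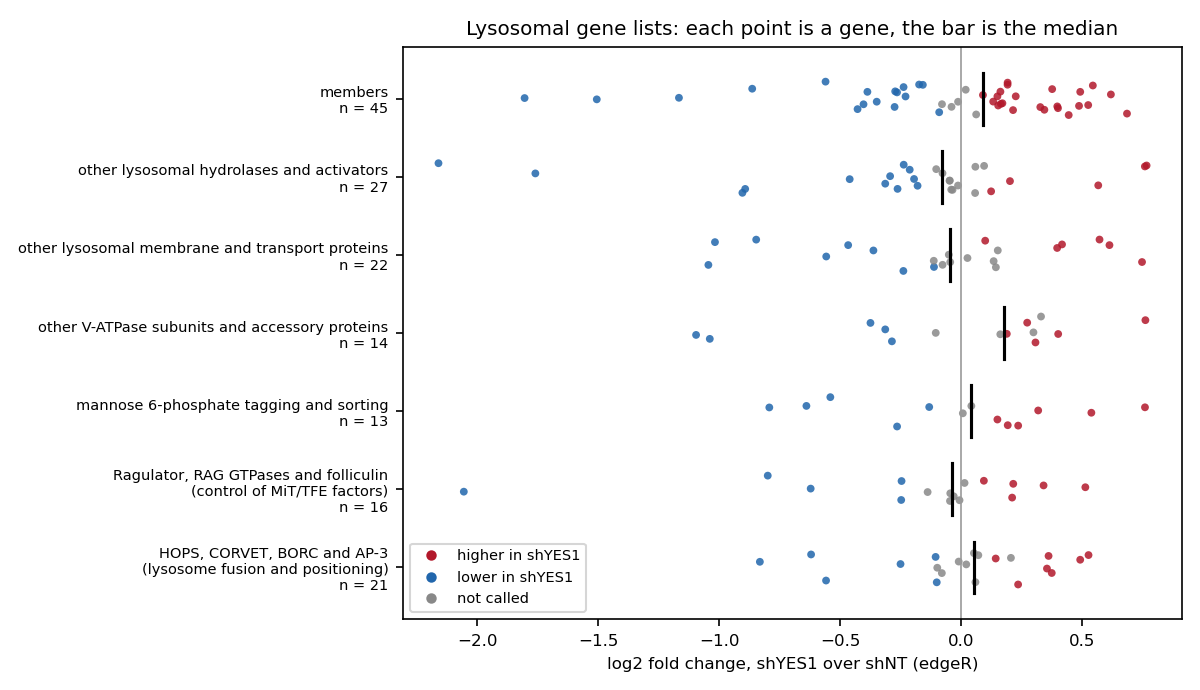
The horizontal axis gives the log2 fold change, shYES1 over shNT, of each tested gene (points, red for higher, blue for lower, grey for not called) in the members and in 6 other lysosomal lists, with a black bar at each list's median. Every list holds genes on both sides of 0, and all medians lie between -0.077 and 0.18.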

How the data were processed

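Counts per gene were deposited by the authors as whole numbers without normalization, 1 file per library with unstranded, forward and reverse columns. CASAVA 1.8.2, Trimmomatic 0.35, STAR 2.5.1b and build GRCh38 are named, per the submitters' processing notes. No source used here gives the annotation release. The reverse-strand column was used, since 93.5% to 94% of stranded gene reads fell on it. The 4 entries naming no gene (19.8% to 20.3% of reads) were left out. Symbols were found for 57392 of 58219 identifiers, and 57881 are in GENCODE 29, the source of coordinates, transcript lengths (longest APPRIS principal transcript) and 3' UTRs (at least 50 bases, longest per gene).

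The test was run with edgeR 4.0.16 (R 4.3.3). Its filterByExpr, at a minimum count of 10 and a total of 15, kept 14239 genes. After TMM scaling, the robust quasi-likelihood test compared shYES1 with shNT, with Benjamini-Hochberg adjustment over all genes and a threshold of 0.05. The standard error is the log2 fold change divided by the square root of F and is approximate. CPM values use the TMM-scaled library totals and include genes that were not tested. The common biological coefficient of variation was 2.1%, so small differences pass the test. The edgeR step was checked on simulated counts in which few genes changed, whereas 65.3% of the genes tested were called here. That check does not cover the scaling or the rate of false calls under so broad a change. Pairs of libraries within a group differed by more than sampling noise (chi-square per degree of freedom 1.15 to 2.2).

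Members, role classes and lists were chosen with earlier results of these data known. Named with values in each library are YES1, the MiT/TFE factors, MCOLN1 and up to 3 rises and 3 falls per role class among called genes; in each other list, up to 2 of each are named, except that 1 gene is not reported here. Genes singled out beyond this, such as ATP6AP1, ATP6AP2, TCIRG1, IGF2R and CTSB, were chosen after their values were seen. Alternatives were RLE or library-size scaling, TMM on genes without CCTTTC, DESeq2 1.42.0, limma-voom (limma 3.58.1), 2 other filters, a 1.2-fold minimum, unstranded counts, a block for the sample number, and omission of each library.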

Additional observations from a re-analysis of the deposited data

How the results depend on the processing

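Of the 40 called members, 21 kept call and direction under all 16 alternatives and 19 lost the call under at least 1, and all 19 lost it in the test against a 1.2-fold change. That test, which asks for more by construction, left 5185 genes called in all (2324 higher, 2861 lower), 21 members (12 higher, 9 lower), and 19 higher and 23 lower in the other lysosomal lists. Leaving out 1 library at a time gave 8751 to 9078 called genes (4342 to 4500 higher, 4409 to 4584 lower), 22 to 23 members higher and 17 to 18 lower. DESeq2 called 7953 genes and 39 members. Signs turned for LAMP2 (-0.072), CTSZ (-0.00065) and GLA (-0.028) under the CCTTTC-free scaling, for PSAP (0.0065), CTSK (0.057), GAA (0.084) and ATP6V1E1 (0.018) with library-size scaling, for GAA without a low-count filter (0.00076) and when 1 library was left out (-0.037 to 0.0072, turning without shNT replicate 2 and without shYES1 replicate 1), and for CTSK when 1 library was left out (-0.14 to 0.062, turning without shYES1 replicate 2). The cause was not tested. Weighted by transcript length, the log2 ratio of summed levels was -0.10 for all members (-0.077 in CPM), -0.20 for membrane proteins (-0.097), -0.14 for proteases (-0.19), -0.13 for lipid-handling genes (-0.078), 0.20 for MiT/TFE factors (0.15) and -0.27 for V0 genes (-0.14). With the sample number as a replicate block 9297 genes, 23 higher and 17 lower members were called, and no called member changed call. Same-numbered libraries shared little (correlations of deviations 0.0116 to 0.0252), though 4 libraries correlated best with the same number in the other group. Nothing in the labels pairs the numbers, so they were not treated as pairs. Genes under about 10 reads per library, such as ATP6V0C, are limited by depth or by overlapping annotation.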
